A study of Mus musculus with 4 samples.

Results

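The genes described here encode extracellular and cell-surface metalloproteases, related proteins and inhibitors. They are the ADAMTS, ADAMTS-like (ADAMTSL), ADAM and MMP families and Timp1, Timp2 and Timp3. ADAMTSL proteins resemble ADAMTS proteases but are not proteases. They were chosen by gene symbol and by a minimum of 20 UMIs (unique molecular identifiers, each counting 1 captured transcript) in total over 4 single-cell RNA libraries. Of 31253 genes in the tables, 83 symbols matched and 48 of them reached the minimum. The other 35 fell short of it, and 19 of those had no UMI. Timp4 is outside the symbol rule and is given only as another gene of the pathway.

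The libraries held red fluorescent cells sorted by FACS from the mouse cardiac left ventricle. The 2 NC libraries came from mice on a chow diet with 10% of energy from fat and normal water, and the 2 HFpEF libraries from mice on a high-fat diet (60% of energy from fat) plus 0.5 mg/ml L-NAME, a nitric oxide synthase inhibitor, in the drinking water, a model of heart failure with preserved ejection fraction. All groups carried Cdh5-CreER, which is active in endothelial cells (ECs) after tamoxifen (given at 7 weeks of age), the R26-stop-tdTomato reporter that Cre switches on, and a Scarb1 gene floxed around exon 2 on both alleles (Sfl/fl/RΔEC) or on a single allele (Sfl/+/RΔEC). The labels give the diet of each library but neither its genotype, the number of mice in it nor their age at sampling. The paper compared both genotypes under each diet in these cells, so the 2 libraries of a diet probably differ in genotype. They are then not plain replicates, and the effects of genotype and of library cannot be told apart. Each p-value measures only the spread between these libraries, which may include that of genotype. In capillary ECs Scarb1 was at 119.9 and 49.3 CPM (UMIs of the gene scaled to a fixed total per library and cell class) under NC and 116 and 54.6 CPM under HFpEF, lower in library 2 of each diet. No genotype was assigned from these levels, since 3′ tags lie outside the deleted exon and do not read the deletion itself. The paper reported lower Scarb1 in capillary ECs of Sfl/fl/RΔEC than of Sfl/+/RΔEC mice on the same diet, and took it to show the knockout.

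ADAMTS proteases are secreted and bind the extracellular matrix. The proteoglycanases among them cleave versican and aggrecan, whereas Adamts2 and Adamts14 encode enzymes that trim procollagen. ADAM proteases sit in the membrane and release growth factors, cytokines and adhesion molecules from the cell surface. MMPs cleave collagens and basement membrane proteins. TIMPs bind the active site of MMPs and of some of the other enzymes and block it. In the heart, fibroblasts are a major source of matrix-degrading enzymes, and ECs use metalloproteases in sprouting, in shedding of surface receptors and in turnover of the vessel basement membrane.

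After quality filters 39829 of 41843 deposited cells were kept, with 5440 to 20588 cells per library. Median depth per cell was 3644 and 4035.5 UMIs under NC but 1699 and 1577 UMIs under HFpEF, and library pairs shared 10 to 42 cell barcodes. Clustering without the 48 genes gave 23899 capillary, 4370 artery, 2416 vein, 245 endocardial and 82 lymphatic ECs, along with 813 mural-like, 114 fibroblast-like, 98 myeloid-like, 88 T and 68 B cells that the Cre driver does not target. Another 168 were proliferating ECs and 943 held markers of several types. Each of the 6 EC markers was detected in the capillary class, where they summed to between 4805 and 5747 CPM in each library. Capillary ECs are the ECs whose clusters passed for no other class. Their 5 capillary markers summed to 38797 and 47098 CPM under NC and 35736 and 36798.5 CPM under HFpEF, lower in both HFpEF libraries. The part of this in the diet comparison was not tested. The same markers summed to 23866 to 31671 CPM in artery and 26757 to 38895 CPM in vein ECs, with overlap of the capillary and vein ranges. Capillary subcluster 4 of 2072 cells (described below) had 3 of the 8 artery markers among its leading genes, and subcluster 2 had 1. A further 6525 low-depth ECs, among them a cluster led by cardiomyocyte transcripts, were left unnamed (666 and 609 under NC, 1139 and 4111 under HFpEF). Their capillary markers summed to 42313 to 47731 CPM, above the capillary class in each library. Levels below are CPM, scaled by all UMIs of a cell class in a library. A UMI marks a transcript end, so CPM was not divided by gene length and levels are compared within a gene only. Fewer cells with a transcript of a gene and fewer transcripts of it per cell cannot be told apart in such sums.

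The genes differed in their distribution over the cell classes, also within a family. This is given as a description without a test because classes came from clustering. Fibroblast-like cells held the highest pooled level of 21 of the 48 genes, lymphatic ECs of 7, myeloid-like cells of 5, endocardial ECs, mural-like cells and proliferating ECs of 3 each, and artery ECs, vein ECs and T cells of 2 each. Some of these maxima rest on very few UMIs, such as 1 UMI of Adamts13 in lymphatic ECs. No share of all genes is given beside these counts, so they are not read as a trait of the 48 genes. Among the proteoglycanases, Adamts1 (Ensembl ENSMUSG00000022893) reached 1757 ± 223 CPM (SD, n = 4 libraries) in artery ECs and 1679 ± 198 CPM in mural-like cells, against 807 ± 162 CPM in capillary ECs. The capillary range did not reach the artery range, whereas artery and mural-like ranges overlapped. In mural-like cells the artery markers summed to 1399 to 1787 CPM, against 2036 to 2429 CPM in artery ECs, and the EC markers to 1571 to 2056 CPM. The part of these in the mural-like levels was not tested. Adamts4 (ENSMUSG00000006403) stood at 121 ± 11.8 CPM in mural-like cells and at 42.4 ± 21.7 CPM in capillary ECs. Adamts5, encoding another aggrecanase, was highest in fibroblast-like cells at 748 ± 427 CPM, with 56.5 ± 12.1 CPM in capillary ECs and 13.8 ± 3.62 CPM in mural-like cells. Adamts8 was seen mainly in vein ECs, at 10.3 ± 7.23 CPM, and at 0.261 ± 0.187 CPM in capillary ECs.

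Inhibitor genes followed separate patterns. Timp3 (ENSMUSG00000020044), whose protein stays bound to the matrix, was at 4275 ± 992 CPM in lymphatic, 2380.2 ± 161 CPM in artery and 1365 ± 131 CPM in capillary ECs. Timp2, which also takes part in activation of pro-MMP2, spanned a far wider range. It stood at 1286 ± 563 CPM in lymphatic ECs, 948 ± 191 CPM in fibroblast-like cells and 305 ± 39.8 CPM in endocardial ECs, but at 9.54 ± 2.06 CPM in capillary ECs. Timp1 was at 138 CPM in fibroblast-like cells pooled over libraries and at 0.168 CPM in capillary ECs. The fibroblast value of Timp1 leaned on NC library 1, which had 514 CPM from 9 cells, against 37.7 to 90.5 CPM in the other 3 libraries.

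Secreted MMP genes had their highest levels outside the blood vessel ECs. Mmp2, which encodes gelatinase A, was at 536 CPM in fibroblast-like, 34.0 CPM in endocardial, 5.62 CPM in artery, 6.56 CPM in vein and 0.574 CPM in capillary cells (pooled). Mmp3, encoding stromelysin, was at 441 CPM in fibroblast-like cells, with 1 UMI among all capillary ECs and none in artery or vein ECs. Myeloid-like cells held Mmp9 (gelatinase B) at 112, Mmp8 (neutrophil collagenase) at 100.2 and Adam8 at 83.8 CPM, while Mmp9 and Mmp8 had 5 and 1 UMIs in capillary ECs. Fibroblast-like cells also held Adamts2, the procollagen N-proteinase gene, at 188, Mmp23 at 140.2 and Adamtsl2 at 92.8 CPM. Timp1 and the genes of this paragraph lie outside the naming rule and were chosen after their values were seen. With 3 to 66 cells per library in fibroblast-like and myeloid-like cells, no diet test was run on these classes.

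Membrane-bound enzymes and ADAMTSL genes were partly endothelial. Mmp15, a membrane-type MMP, was at 88.7 ± 16.3 CPM in capillary and 91.8 ± 25.7 CPM in artery ECs, and only 7 UMIs were counted in endocardial and 2 in lymphatic ECs. Mmp14, which encodes the main activator of pro-MMP2, was instead low in blood vessel ECs, with 135 ± 81.5 CPM in lymphatic, 134 ± 31.3 CPM in fibroblast-like and 3.42 ± 1.12 CPM in capillary cells. Adamtsl1 was concentrated in lymphatic ECs at 244 ± 56.9 CPM and in mural-like cells at 31.1 ± 8.34 CPM, and stood at 0.215 ± 0.147 CPM in capillary ECs. Adam15 was at 376 ± 77.4 CPM in vein and 227 ± 31.2 CPM in capillary ECs, and the sheddase gene Adam10 at 393 ± 93.6 CPM in lymphatic and 121 ± 16.1 CPM in capillary ECs. Adam12 had 12 UMIs in lymphatic ECs and no UMI in fibroblast-like, endocardial or myeloid-like cells. Adamtsl5 and Adamts12 were at 14.9 ± 2.98 CPM and 12.0 ± 9.65 CPM in mural-like cells, and Adamtsl3 at 11.9 ± 2.68 CPM in vein ECs and 68.4 ± 34.7 CPM in fibroblast-like cells.

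**Figure D1:**
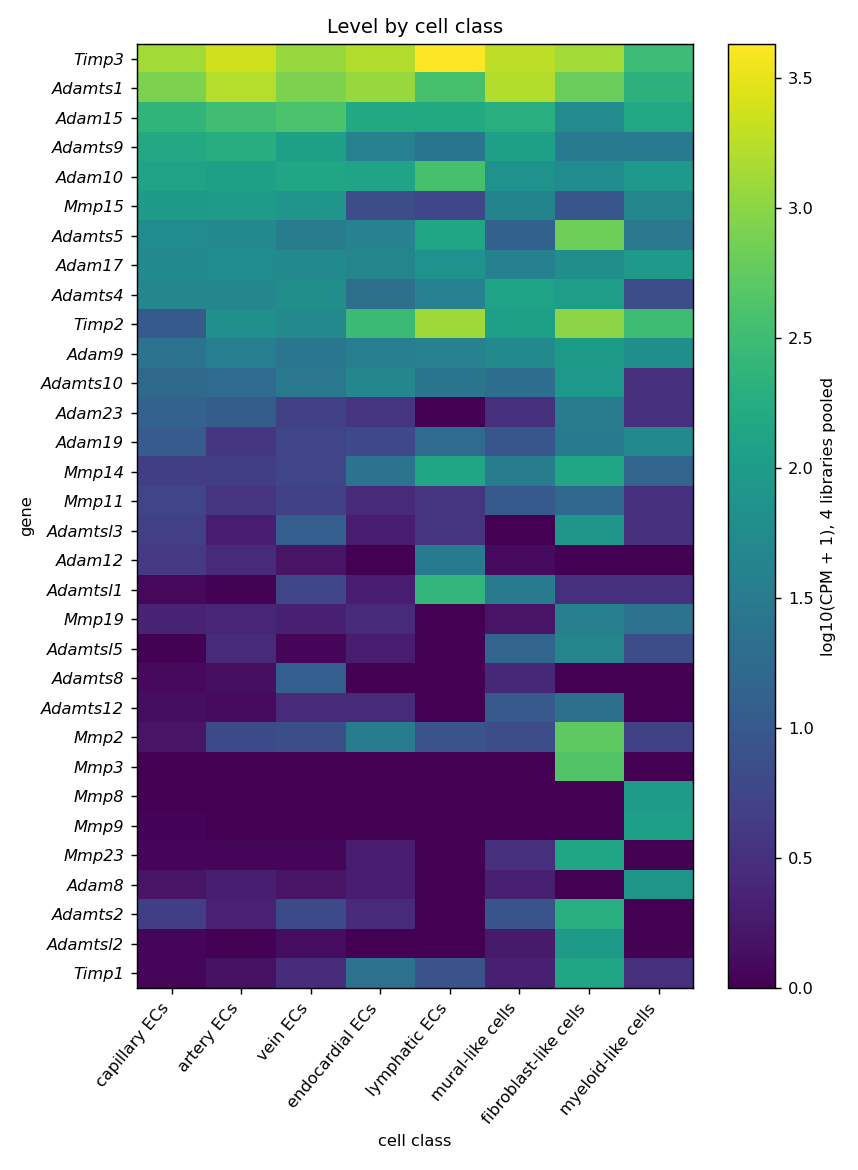
Pooled level of the genes named in the text (rows) in 8 cell classes (columns), coloured by log10(CPM + 1) over the 4 libraries. Timp3 and Adamts1 were seen in every class, Mmp2, Mmp3, Mmp23 and Timp1 were highest in fibroblast-like cells, and Mmp8 and Mmp9 in myeloid-like cells.

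The promoters of Adamts1, Adamts9 and Adam10 are shown because these genes had both HFpEF libraries above both NC libraries in capillary ECs (next paragraphs) and a RefSeq promoter for GRCm38.p6 was at hand, as it was for 30 of the 48 genes. They hold 300 bases around the start of the gene, lie at chr16:85803064-85803363 (minus strand), chr6:92943485-92943784 (minus strand) and chr9:70678732-70679031 (plus strand), and are written 5′ to 3′ along the gene. Capitals mark matches, on either strand, to the GC box (GGGCGG), the TATA box (TATAAA) and the CCAAT box (CCAAT).
Adamts1: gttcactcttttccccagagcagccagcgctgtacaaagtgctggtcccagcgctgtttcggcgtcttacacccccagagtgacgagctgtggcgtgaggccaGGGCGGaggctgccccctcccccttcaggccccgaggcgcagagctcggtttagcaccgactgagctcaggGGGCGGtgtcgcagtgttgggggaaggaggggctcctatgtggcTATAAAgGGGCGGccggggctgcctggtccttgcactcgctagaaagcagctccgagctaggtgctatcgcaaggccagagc
Adamts9: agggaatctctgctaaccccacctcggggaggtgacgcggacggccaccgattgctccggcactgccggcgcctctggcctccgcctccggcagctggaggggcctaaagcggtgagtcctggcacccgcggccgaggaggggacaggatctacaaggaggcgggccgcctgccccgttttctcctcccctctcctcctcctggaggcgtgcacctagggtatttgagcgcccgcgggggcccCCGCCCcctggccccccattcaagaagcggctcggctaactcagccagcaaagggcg
Adam10: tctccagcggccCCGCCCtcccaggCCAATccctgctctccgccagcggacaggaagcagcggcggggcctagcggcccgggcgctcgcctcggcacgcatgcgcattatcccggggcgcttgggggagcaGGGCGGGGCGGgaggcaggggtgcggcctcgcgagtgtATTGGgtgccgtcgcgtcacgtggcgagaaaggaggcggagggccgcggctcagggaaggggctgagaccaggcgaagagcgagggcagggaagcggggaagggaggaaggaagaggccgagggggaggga
Adamts1 held 3 GC boxes and a TATA box at position -32 from the start, Adamts9 held 1 GC box, and Adam10 held 3 GC boxes, of which the last 2 overlap by 1 base, and 2 CCAAT boxes. Among 32851 promoters of the same length, 35.7% held a GC box, 13.6% a TATA box and 37.4% a CCAAT box. The letters TGANTCA (AP-1) and TGACGTCA (CRE), searched on both strands, were in none of the 3 windows, and were in 7.81% and 1.79% of all promoters. A match to these letters describes the sequence and is not evidence of binding.

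HFpEF was compared with NC in capillary ECs, the microvascular cells that made up most of the sort. Among genes at an unadjusted p under 0.05 by edgeR, Adamts1, Adamts9, Adamts5, Adam10, Adam17, Adam23, Adam12 and Mmp19 were higher in both HFpEF libraries than in both NC libraries. Adamts10, Timp2 and Mmp11 were lower in both. The log2 fold changes were 0.31 to 1.37 and -0.77 to -0.50. None of these differences passed the adjustment over all genes. Of the 48 genes, no gene of the 29 that passed the low-count filter was called by edgeR's quasi-likelihood test (adjusted p under 0.05). By that test 0.294% of all 12241 genes tested were called. DESeq2 called 1 of the 48, Adamts1, but it also called many more of all genes than edgeR did (counts in the closing section). No excess is read from that call. At an unadjusted p under 0.05 there were 12 of 29, 9 higher and 3 lower in HFpEF, against 19.9% of all genes (10.4% higher and 9.51% lower). The diets did not overlap for 9 genes in the higher and 7 in the lower direction, against 23.9% and 28% of all genes. The median log2 fold change was -0.06 over the 29 and 0.00 over all genes. Most capillary ECs of the NC libraries lay in subclusters 1 and 3, and most of the HFpEF libraries in subclusters 0 and 2, which are described further on with their leading genes. Subcluster 2 held 4.51% and 2.53% of capillary ECs under NC and 20.4% and 28.0% under HFpEF. Subcluster 3 held 32.9% and 38.8% under NC and 8.88% and 3.14% under HFpEF. The part of this mix in the diet comparison was not tested.

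Of the 6 proteoglycanase genes, 4 were tested. All 4 were higher under HFpEF with an unadjusted p below 0.05 by edgeR, against 10.4% of all genes, and none passed the adjustment. The gene groups were drawn up with earlier results of these data known, so no excess is read from their counts. Adamts1 was at 716 and 649 CPM under NC and 843 and 1018 CPM under HFpEF. The HFpEF libraries were the higher pair, with a log2 fold change of 0.46 ± 0.13 (SE), unadjusted p = 0.00701 and adjusted p = 0.124 by edgeR. Adamts9, whose protease also cleaves versican, was at 138 and 123 CPM under NC and 158 and 192 CPM under HFpEF. Its diets did not overlap (log2 fold change 0.44 ± 0.13, adjusted p = 0.129). Adamts5 was at 43.9 and 50.9 CPM under NC and 59.0 and 72.0 CPM under HFpEF. It was separated by diet in the same direction (log2 fold change 0.49 ± 0.13, adjusted p = 0.116). Adamts5, kept out of the clustering, was among the leading genes of capillary subcluster 2, which held more of the HFpEF capillary ECs. The part of this in its diet difference was not tested. Adamts4 was at 35.4 and 25.4 CPM under NC and 34.5 and 74.3 CPM under HFpEF. Here the diets overlapped, since HFpEF library 1 lay below NC library 1 and HFpEF library 2 stood apart, and the log2 fold change of 0.89 ± 0.30 (adjusted p = 0.171) fell to 0.21 ± 0.20 (adjusted p = 0.684) without HFpEF library 2. Over the alternatives listed in the closing section the adjusted p ranged from 0.0125 to 0.378 for Adamts1 and from 6.65e-09 to 0.684 for Adamts4.

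Thinning each cell to 1000 UMIs left the 2 HFpEF libraries above the 2 NC libraries for Adamts1. A UMI was found in 36.9% and 32.7% of capillary ECs under NC and 43.4% and 50.6% under HFpEF (exact 95% binomial bounds from 31.3% to 51.6% over the 4 libraries, for counting error only), after 118, 56, 497 and 3073 shallower cells were left out. In B cells, which should lack the gene, it was found in 2 of 52 (3.85%), and in T cells in 21 of 86 (24.4%, exact 95% bounds 15.8% to 34.9%). Median depth was 1597 UMIs in B cells, 3661.5 in T cells and 1628 to 4132 in the capillary ECs of each library. The T cell bounds reach the share of capillary ECs in NC library 2. The 6 EC markers summed to 1572 to 2301 CPM in T cells and 163 to 941 CPM in B cells over the libraries. Neither share is therefore a background from cells free of EC transcripts. Without thinning the capillary shares were 62.9%, 59.4%, 57.6% and 63.2% (NC libraries first), with more UMIs per cell in the NC libraries. Adamts4 was found in 2.59%, 1.64%, 2.52% and 5.54% of thinned cells, all under the share of 5.77% that 0 of 52 B cells allows, so no difference is read from these shares.

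Among ADAM genes, 4 of 10 tested had an unadjusted p below 0.05 and a higher level under HFpEF, and none was lower (10.4% and 9.51% of all genes). Adam10, which with Adam17 encodes the main sheddases of cell-surface proteins, was at 106 and 110.1 CPM under NC and 125 and 142 CPM under HFpEF. The HFpEF libraries of Adam10 both lay above the NC libraries (log2 fold change 0.31 ± 0.11, unadjusted p = 0.0189, adjusted p = 0.17). Adam17 was at 44.0 and 42.2 CPM under NC and 47.0 and 63.2 CPM under HFpEF. The diets were separated here too (log2 fold change 0.38 ± 0.14, adjusted p = 0.195). Adam23, which encodes an ADAM without protease activity, was at 8.06 and 9.39 CPM under NC and 12.0 and 18.4 CPM under HFpEF (log2 fold change 0.86 ± 0.21, adjusted p = 0.0993). Adam12 was low, at 1.13 and 2.35 CPM under NC and 4.47 and 4.48 CPM under HFpEF, and had a log2 fold change of 1.37 ± 0.34 (adjusted p = 0.107). Adam15, Adam9 and Adam19 had log2 fold changes of -0.06, 0.02 and 0.07 with overlapping diets, and the sign of each changed under some alternatives.

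The genes lower in HFpEF at an unadjusted p under 0.05 were Adamts10, Mmp11 and Timp2. Adamts10, whose product binds fibrillin microfibrils, was at 20.9 and 19.1 CPM under NC and 12.9 and 13.5 CPM under HFpEF. The 2 HFpEF libraries lay close together and below both NC libraries, with a log2 fold change of -0.59 ± 0.13, unadjusted p = 0.00202 and adjusted p = 0.0917, the lowest adjusted p of the 29 genes. Timp2 was at 12.2 and 10.1 CPM under NC and 8.32 and 7.57 CPM under HFpEF, with no overlap of the diets (log2 fold change -0.50 ± 0.18, adjusted p = 0.189). Mmp11 (stromelysin 3) was at 5.21 and 6.63 CPM under NC and 4.47 and 2.94 CPM under HFpEF (log2 fold change -0.77 ± 0.27, adjusted p = 0.182). Mmp19 moved the other way at a very low level, 0.914 and 0.470 CPM under NC and 1.23 and 2.06 CPM under HFpEF (log2 fold change 1.37 ± 0.45, adjusted p = 0.159). Timp3 showed overlapping diets at 1502.5 and 1341 CPM under NC and 1421 and 1195 CPM under HFpEF (log2 fold change -0.11 ± 0.14, adjusted p = 0.695). Of the membrane-type MMPs, Mmp15, with both HFpEF libraries below the NC libraries, had a log2 fold change of -0.26 ± 0.17 and Mmp14 of -0.31 ± 0.32, with adjusted p of 0.413 and 0.631.

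Adamtsl3 had a log2 fold change of -0.07. The other 10 genes tested lay between 0.561 and 7.84 CPM in capillary ECs with log2 fold changes from -0.56 to 0.42, and none reached an unadjusted p under 0.05. The 19 genes under the filter had means of 0.00918 to 0.560 CPM there, too few counts at this depth for a test. Leaving out HFpEF library 1 gave 6 calls of 33 tested (Adam12, Adam17, Adam23, Adamts4, Adamts5 and Adamts9), where 5.01% of all genes were called. Testing without the low-count filter gave 10 of 48, where 6.56% of all genes were called. Leaving out subcluster 4, or subclusters 2 and 4, gave no call by edgeR, with 12 and 11 of 29 genes at an unadjusted p under 0.05. No share of all genes is given beside these counts, so no excess is read from them. In HFpEF library 1 the summed level of 5 cardiomyocyte markers in capillary ECs was 268 CPM, against 61.0 to 95.7 CPM elsewhere, and in HFpEF library 2 that of 4 hemoglobin genes was 48.0 CPM, against 4.59 to 5.59 CPM. The part of these in the diet comparison was not tested.

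**Figure D2:**
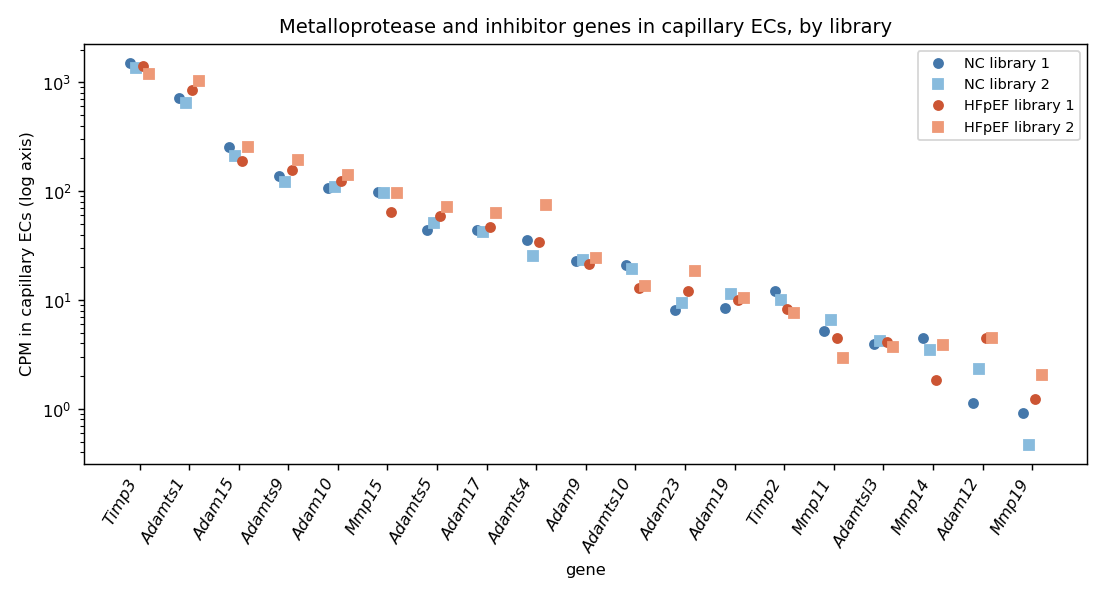
CPM (log axis) of the named genes with at least 1 CPM in capillary ECs, 1 point per library, NC in blue and HFpEF in red or orange. The HFpEF points of Adamts1, Adamts9, Adam10, Adamts5, Adam17, Adam23, Adam12 and Mmp19 lie above both NC points, those of Adamts10, Timp2, Mmp11 and Mmp15 lie below, and those of Adamts4 overlap the NC points.

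In vein ECs Adamts1 rose with the diet, the only call among the 24 genes tested (1.86% of all 9974 genes were called). It was at 755 and 618 CPM under NC and 1105 and 1042 CPM under HFpEF, with a log2 fold change of 0.65 ± 0.16 and adjusted p = 0.0448 by edgeR (0.00694 to 0.347 over the alternatives). The diets did not overlap. The call was lost without NC library 2 (log2 fold change 0.51), HFpEF library 1 (0.58) or HFpEF library 2 (0.72), when cells holding markers of another type were left out (0.65), with each cell gated by its own markers (0.38) and at a finer clustering (0.52), and held in 5 of 11 alternatives. No vein class formed with hemoglobin-rich cells kept. The 5 vein markers summed to 783 and 835 CPM in vein ECs under NC and 1014 and 1442 CPM under HFpEF. The 5 capillary markers summed to 31844 and 38894.5 CPM there under NC and 26757 and 29895 CPM under HFpEF. The summed cardiomyocyte markers in vein ECs were at 140.2 CPM in HFpEF library 1 and at 35.2 to 50.5 CPM in the others. The part of these in the call was not tested. A further 4 genes were higher and Mmp15 was lower (log2 fold change -0.45 ± 0.21) at an unadjusted p under 0.05, together 6 of 24 against 13.5% of all genes (7.35% higher and 6.11% lower). The diets did not overlap for 7 genes in the higher and 4 in the lower direction (20.9% and 22.6% of all genes). Adamts8 was at 4.78 and 8.18 CPM under NC and 7.28 and 20.9 CPM under HFpEF. Its diets overlapped and HFpEF library 2 stood above the other 3 (log2 fold change 1.46 ± 0.40, adjusted p = 0.0641). Adamts4 was at 55.5 and 20.5 CPM under NC and 41.9 and 108 CPM under HFpEF, again with overlap (log2 fold change 1.14 ± 0.32, adjusted p = 0.0819). Adam10 and Adamts5 were separated by diet, with log2 fold changes of 0.44 ± 0.15 and 0.66 ± 0.23. The adjusted p was 0.18 for each.

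In artery ECs none of 19 tested genes was called by edgeR or by DESeq2 (0.0468% of 10679 genes were called by edgeR), and 6 were higher and none lower at an unadjusted p under 0.05, against 13.6% of all genes (6.88% higher and 6.7% lower). The diets did not overlap for 6 genes in the higher and 2 in the lower direction, against 22.2% and 23.4% of all genes. Adam23 was at 7.08 and 5.71 CPM under NC and 10.6 and 16.6 CPM under HFpEF, separated by diet, with a log2 fold change of 1.22 ± 0.28 and adjusted p = 0.16. Adamts9 was at 181 and 114 CPM under NC and 255 and 224 CPM under HFpEF, likewise without overlap (log2 fold change 0.69 ± 0.20, adjusted p = 0.218). Adamts5, Adamts4, Adam17 and Adam10 had log2 fold changes of 0.74, 0.69, 0.40 and 0.36. Adamts1, at 1591 and 1633 CPM under NC and 2082 and 1724 CPM under HFpEF, had a log2 fold change of 0.24 ± 0.15 (adjusted p = 0.498).

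Mural-like cells, a class with pericyte and smooth muscle markers, gave no call among 16 genes by edgeR or DESeq2 (0.207% of 8689 genes were called by edgeR). Of the 813 cells, 416 came from a cluster with the artery markers Gja5 and Sema3g among its leading genes, beside Myh11 and Acta2. The same 5 capillary markers summed to 10648 to 12365 CPM in mural-like cells. The part of EC transcripts in the values, and in the comparison of this class with capillary ECs below, was not tested. Adamts9 was higher and Adamtsl1 lower at an unadjusted p under 0.05, 2 of 16 against 9.33% of all genes (5.35% higher and 3.98% lower). For 3 genes in each direction the diets did not overlap (17% higher and 22.8% lower over all genes). Adamts9 was at 136 and 71.4 CPM under NC and 155 and 145 CPM under HFpEF (log2 fold change 0.61 ± 0.24, adjusted p = 0.409) and Adamtsl1 at 34.9 and 39.8 CPM under NC and 29.3 and 20.3 CPM under HFpEF (log2 fold change -0.70 ± 0.32, adjusted p = 0.505). Adamts4 was at 122 and 133 CPM under NC and 105 and 125 CPM under HFpEF there, with a log2 fold change of -0.08 ± 0.19. Whether the diet effect differed between classes was tested directly, with libraries as blocks. Adamts4 differed between mural-like cells and capillary ECs by -1.11 ± 0.20 on the log2 scale (edgeR, adjusted p = 3.12e-05), 1 of 32 genes against 0.486% of all genes. The difference lost its call without NC library 2 (-0.76, adjusted p = 0.626), without HFpEF library 2 (-0.50, adjusted p = 0.916) and when cells holding markers of another type were left out (-0.07 ± 0.68, adjusted p = 1), and its adjusted p ranged from 1.43e-07 to 1 over the alternatives. By edgeR, no gene of 28 differed between artery and capillary ECs and none of 28 between vein and capillary ECs (0.13% and 0.333% of all genes did), with 2 and 4 genes at an unadjusted p under 0.05 (5.97% and 6.17% of all genes). For mural-like cells Adamts4 was also the 1 gene at that threshold (6.04% of all genes). For Adamts1, vein minus capillary was 0.17 ± 0.09 with an adjusted p of 0.825.

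**Figure D3:**
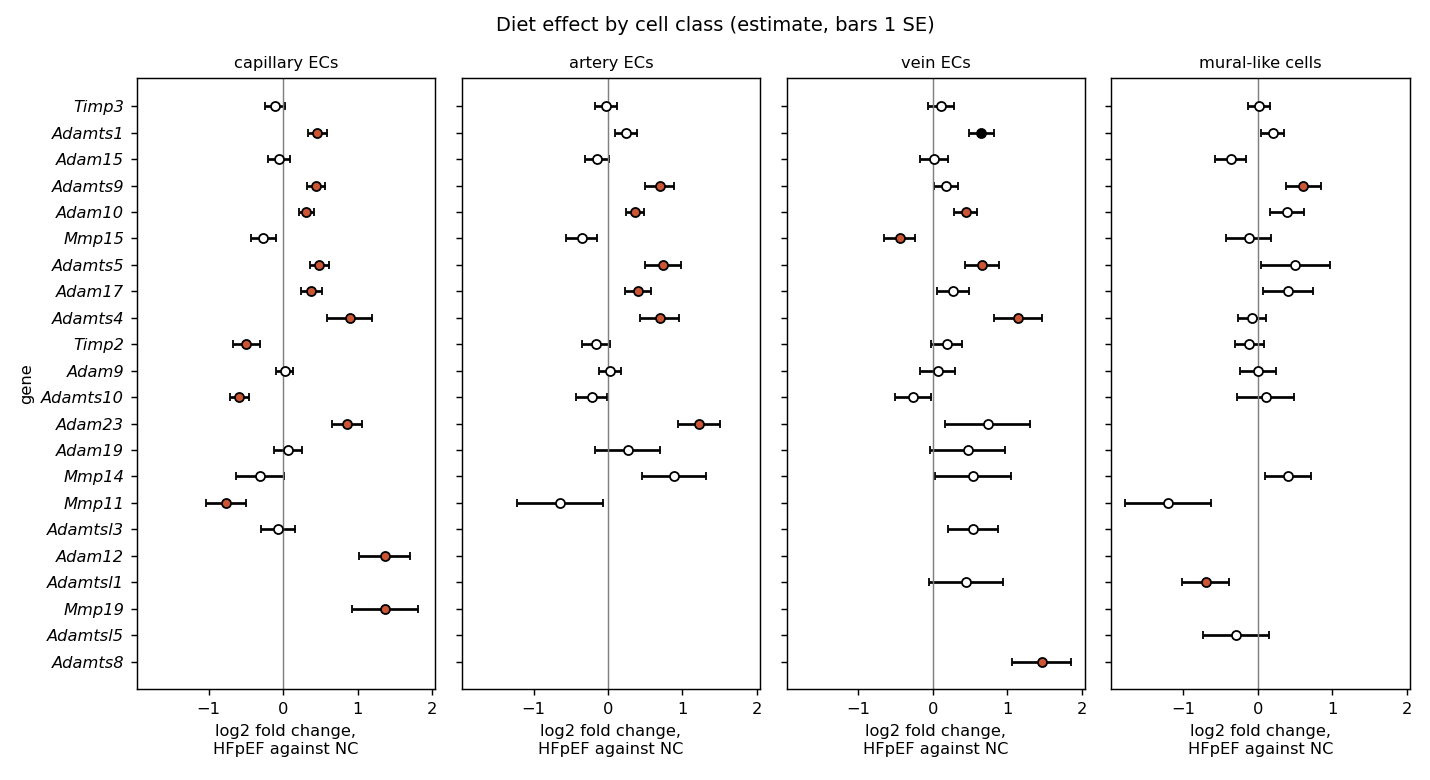
Log2 fold change of HFpEF against NC (x axis, bars 1 SE) of the named genes tested in capillary, artery and vein ECs and mural-like cells. Black points passed an adjusted p of 0.05, red points an unadjusted p of 0.05 and white points neither. Adamts1 in vein ECs, at 0.65, is the black point, and Adamts4 lies at 0.89 in capillary ECs and at -0.08 in mural-like cells.

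Capillary ECs were split into 7 subclusters, again without the 48 genes, and named by their leading genes: 0 (heat shock genes Hspa1b and Hspa1a), 1 (Adamts4, which did not enter the clustering, Il6 and Plaur), 2 (Mgp, Gsn and Fbln5), 3 (Timp4 and Apoe), 4 (the artery markers Sema3g, Fbln5 and Hey1), 5 (interferon-induced Ifit genes) and 6 (Pgf, Apln and Ccl2). Levels over subclusters are a description. Adamts1 was at 909, 1176, 1166, 284, 548, 711 and 793 CPM in subclusters 0 to 6 (pooled over libraries), lowest in the Timp4 subcluster 3 in every library. Adamts4 was at 47.5, 85.9, 32.7, 6.68, 5.54, 27.6 and 68.7 CPM, lowest in subclusters 3 and 4. Its NC libraries were at 64.1 and 48.0 CPM in subcluster 1 and at 59.7 and 73.8 CPM in subcluster 6, and its HFpEF libraries at 82.5 and 131 CPM and at 67.5 and 71.2 CPM, so the order of these subclusters differed between libraries. Adam10 varied less, at 121, 117, 133, 111, 108, 125 and 183 CPM. Mmp14 was at 18.4 CPM in subcluster 6, whose leading genes Pgf and Apln are known from angiogenic ECs, and at most 3.90 CPM elsewhere.

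The diets were also compared within each subcluster, by whether the libraries overlapped. Adam10 was higher in both HFpEF libraries than in both NC libraries in 7 of 7 subclusters, as were 0.629% of all genes tested in capillary ECs. In subcluster 3 it was at 101 and 111 CPM under NC and 148 and 135 CPM under HFpEF. Adam12 was higher in 6 of 7 (1.86% of genes in at least 6), at 13 to 67 UMIs per subcluster, and Adam17 in 5 of 7 (4.3% in at least 5). Adamts10 was lower in 5 of 7 (4.21% of genes lower in at least 5), and was at 61.1 and 65.0 CPM under NC and 17.6 and 15.8 CPM under HFpEF in subcluster 2. That subcluster held only 200 and 103 NC cells (median 1000.5 and 1183 UMIs per cell), so its NC levels rest on few UMIs. It held 658 and 3400 HFpEF cells (median 879 and 794 UMIs). Adamts1 was higher in 3 and lower in 1 of 7. It was at 1044 and 1105 CPM under NC and 1113 and 1347 CPM under HFpEF in subcluster 1, at 1179 and 1040.0 CPM under NC and 1081 and 1189 CPM under HFpEF in subcluster 2 and at 814 and 853 CPM under NC and 763 and 749 CPM under HFpEF in subcluster 6. In contrast to the capillary class as a whole, the diets overlapped in several subclusters, subcluster 2 among them, and were reversed in subcluster 6. Adamts4 was higher in 2 of 7 subclusters, 1 and 5. No share of all genes is given beside the counts of Adamts1 and Adamts4, so no excess is read from them. The subclusters share libraries and are not replicates.

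**Figure D4:**
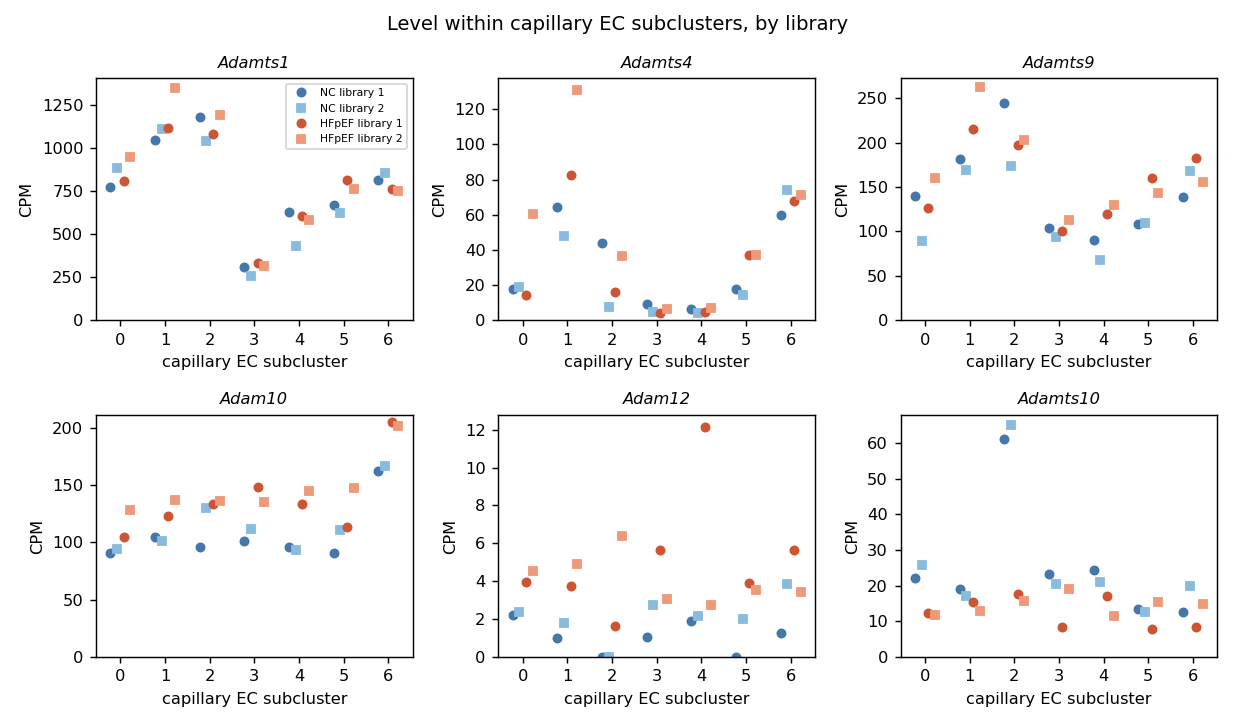
CPM in each of the 7 capillary EC subclusters (x axis), 1 point per library, for Adamts1, Adamts4, Adamts9, Adam10, Adam12 and Adamts10. Adamts1 is lowest in subcluster 3 in all 4 libraries, and the HFpEF points of Adam10 lie above the NC points in every subcluster.

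Other genes of the pathway came from 4 lists, on inhibitors and clearance, activation and trafficking, matrix substrates and shed substrates. Timp4, the TIMP most typical of the heart, fell in capillary ECs, from 1492 and 1078 CPM under NC to 589 and 482 CPM under HFpEF (log2 fold change -1.25 ± 0.18, edgeR adjusted p = 0.0462), and in vein ECs (log2 fold change -1.23 ± 0.17, adjusted p = 0.000361). Like the 48 genes, Timp4 was kept out of the clustering. It leads subcluster 3, which held more of the NC capillary ECs. The capillary call was lost without NC library 1 (log2 fold change -0.995) and with the unnamed ECs added (-1.23, edgeR adjusted p = 0.0868). It was also lost without subcluster 4 (-1.29, edgeR adjusted p = 0.0561) and without subclusters 2 and 4. Reck, a membrane-anchored MMP inhibitor, was at 3.33 and 3.34 CPM under NC and 3.85 and 2.94 CPM under HFpEF (log2 fold change -0.03 ± 0.26). Bsg, an inducer of MMP expression in neighbouring cells, was at 413 and 398 CPM under NC and 326 and 339 CPM under HFpEF, with no overlap of the diets (log2 fold change -0.28 ± 0.10, adjusted p = 0.191). Of 11 tested genes for activation and trafficking (proprotein convertases, iRhoms and tetraspanins), 1 was higher (Pcsk5) and 2 were lower (Bsg and Tspan17) at an unadjusted p under 0.05 in capillary ECs (10.4% and 9.51% of all genes). Of 9 matrix substrates 1 was higher, the proteoglycan gene Bgn, and no gene was called in either list. Apart from Timp4, Reck and Bsg, the genes named in this and the next paragraph were chosen after their values were seen.

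Among genes of proteins that ADAM10 or ADAM17 are known to shed, 5 of 13 tested were higher and none lower at an unadjusted p under 0.05 in capillary ECs (10.4% and 9.51% of all genes), with none called and a median log2 fold change of 0.35, against 0.00 over all genes. The 5 were Jag1 (log2 fold change 0.66 ± 0.13), Vcam1 (0.70 ± 0.14), Tnf (0.95 ± 0.22), Sdc4 (0.54 ± 0.23) and Icam1 (0.35 ± 0.15). In vein ECs 2 of 13 genes on this list were called, Jag1 and Vcam1 (1.86% of all genes). Immediate early genes are known to respond to cell isolation. Of the 14 tested, 2 were higher in capillary ECs at an unadjusted p under 0.05, where 10.4% of all genes were (Atf3 at 0.33 ± 0.13 and Zfp36 at 0.27 ± 0.11), and Fos was at 3136 and 2986 CPM under NC and 3735 and 2916 CPM under HFpEF. Of 9 tested NF-kB targets, 4 were higher (Il6, Tnfaip3, Vcam1 and Icam1), with Il6 at 5.70 and 6.52 CPM under NC and 11.7 and 42.1 CPM under HFpEF, and in vein ECs 4 of 10 were called (Il6, Tnfaip3, Vcam1 and Sele). Icam1 and Vcam1 are on both lists of substrates and NF-kB targets. All these lists were drawn up with earlier results of these data known, so no excess is read from their counts. The part of these transcripts in the levels of the metalloprotease genes was not tested.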

How the data were processed

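Single-cell RNA of sorted left ventricular cells was sequenced with the 10x 3′ v3 kit. The authors trimmed reads with fastp, counted UMIs with Cell Ranger 5.0.1 on mm10, and downsampled libraries to the same number of mapped reads per cell. The deposited matrices hold raw UMI counts per gene and cell for 4 libraries, 2 per diet (11163876 to 48003732 UMIs and 5769 to 21685 cells each), and no column was left unmapped.

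Cells with more than 200 genes and under 20% mitochondrial UMIs were kept, as in the study, and cells with at least 1% hemoglobin UMIs were left out. No doublet caller was run, and clusters with markers of several types were set aside as mixed. Cells were clustered on 2000 variable genes without the 48 genes described (log values clipped at 10 SD, 10 principal components, 20 neighbours, Louvain resolution 0.8 and 0.55 for capillary subclusters) and named by marker genes. Also kept out were the other symbols matching the rule, mitochondrial and hemoglobin genes and a list of cardiomyocyte genes. The same held for Timp4, Scarb1, Irf1, Cxcl1, Cxcl2 and Cxcl10. UMIs were summed per library and class and tested with edgeR 4.0.16 (quasi-likelihood, TMM, low-count filter, Benjamini-Hochberg over all genes tested), where each library of a class held at least 10 cells. Differences of diet effect between classes were interaction terms with library as a block. Promoters came from RefSeq (GRCm38.p6). Scripts were tested on simulated data.

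Named genes had a mean of at least 10 CPM in capillary, artery or vein ECs or mural-like cells, were called in a class, or had at least 1 CPM and an unadjusted p under 0.05 in capillary ECs. The genes, lists and rules were chosen with earlier results of these data known. The alternatives were DESeq2 1.42.0, RLE size factors, no low-count filter, a replicate block, leaving out each library, keeping hemoglobin-rich cells, leaving out cells with markers of another type, gating each cell by its own markers, clustering resolution 1.2, thinning to 750 UMIs or none in place of 1000, and, chosen after seeing the data, adding the unnamed ECs to the capillary class or leaving subcluster 4, or 2 and 4, out of it. R 4.3.3 and Python 3.11.15 were used.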

Additional observations from a re-analysis of the deposited data

Results flagged for a closer look

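The diet effect on Adamts4 differed between mural-like cells and capillary ECs, with a difference of -1.11 on the log2 scale, which is why it is listed here. Adamts4 was at 35.4 and 25.4 CPM in the NC libraries and at 34.5 and 74.3 CPM in the HFpEF libraries of capillary ECs. In mural-like cells it was at 122 and 133 CPM in the NC and at 105 and 125 CPM in the HFpEF libraries. The high capillary level was that of HFpEF library 2 alone, and without that library the difference was -0.50 with an adjusted p of 0.916 by edgeR. The difference was a test of the interaction term, and no group held the 4 samples needed to look for outlying libraries.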

How the results depend on the processing

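Of 284 alternative values of named genes in capillary ECs, 252 kept direction and side of the threshold, 19 kept direction and were now called, and 13 reversed. With no low-count filter the calls among the 48 genes were 10 in capillary, 4 in artery and 3 in vein ECs, against 0, 0 and 1. DESeq2 called 1 gene in capillary ECs, and gave 3 artery, 2 vein and 0 mural genes at an unadjusted p under 0.05, against 6, 6 and 2. Cells with markers of another type left out gave 0 vein calls and 0 calls of a mural against capillary difference, with only 2 genes tested in mural-like cells. Gating each cell gave 0 vein calls and 11 artery genes at an unadjusted p under 0.05. Resolution 1.2 gave 2 vein calls and 0 mural genes at an unadjusted p under 0.05, and keeping hemoglobin-rich cells gave 1 such mural gene. Adding the unnamed ECs gave 0 capillary calls and 11 genes at an unadjusted p under 0.05. Over all genes in capillary ECs there were 36 calls, 301 with DESeq2, 1194 with no filter and 508 with the replicate block. Where no share of all genes stands beside a count in this section, the count is not read as an excess.

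Leaving out each library in turn gave 0 to 6 capillary, 0 to 4 artery and 0 to 2 vein calls, 6 to 13 capillary and 1 to 4 mural genes at an unadjusted p under 0.05, and 0 to 1 and 0 to 2 calls of a difference for artery and mural-like cells. The 6 came without HFpEF library 1 and the 4 artery calls without NC library 1. Below the threshold throughout, log2 fold changes changed sign for 5 genes. Leaving out each library gave -0.26 to 0.026 for Timp3 (above 0 without HFpEF library 2), -0.26 to 0.11 for Adam15 (0.085 without NC library 1 and 0.11 without HFpEF library 1), -0.084 to 0.087 for Adam9 and -0.15 to 0.065 for Adamtsl3 (below and above 0 without HFpEF library 2), and -0.13 to 0.29 for Adam19 (below 0 without NC library 1). Other alternatives gave -0.068 (hemoglobin-rich cells kept), -0.12 (gated) and -0.025 (resolution 1.2) for Adam9, -0.062 (resolution 1.2), -0.030 (unnamed ECs added) and -0.0028 (subcluster 4 left out) for Adam19, and 0.11 (hemoglobin-rich cells kept) for Adamtsl3. The causes were not tested.

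A replicate block gave 3 capillary calls (Adam12, Adam23 and Adamts5), 4 artery and 2 vein calls and 1 mural gene at an unadjusted p under 0.05. The labels do not say what a replicate number marks. Scarb1 in capillary ECs was lower in library 2 of each diet, while over all genes deviations of same-numbered libraries correlated at 0.0596 in capillary, 0.0445 in artery and 0.0193 in vein ECs and at -0.00319 in mural-like cells, so the numbers were not treated as pairs.

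Thinned to 750 UMIs, Adamts1 was found in 31.0% and 27.2% (NC) and 36.2% and 43.4% (HFpEF) of capillary ECs, and Adamts4 in 1.67% and 4.15% of those of the HFpEF libraries. Without thinning the shares were 62.9%, 59.4%, 57.6% and 63.2% for Adamts1, and 8.97%, 6.80%, 4.92% and 9.84% for Adamts4. No vein class formed with hemoglobin-rich cells kept, and fibroblast-like and myeloid-like cells had no test to vary. The libraries limit the tests to 2 against 2, and 19 of the 48 genes were too shallow to test in capillary ECs.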
